A study of Mus musculus with 56 samples.

Results

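The genome-wide binding of HDAC3 was measured by ChIP-seq in bone marrow-derived macrophages (BMDMs) before and after 1 hr of IL-4. HDAC3 accounted for 4 of the 56 samples of the series, and its lists held 45995 of the 1610519 peaks. The members were every peak of the 4 samples whose labels give the antibody as HDAC3, and no peak was picked by its score or gene. The 2 untreated (ctrl) and 2 IL-4-treated samples were all WT mouse BMDMs, grown from bone marrow of animals aged 8 to 12 weeks over 6 days with L929 supernatant as the source of M-CSF. The treated samples received IL-4 at 20 ng/ml, and no other agent or allele separated the groups. Chromatin was cross-linked with DSG and then with formaldehyde, which also captures proteins that touch DNA through a partner. The question was where in the genome HDAC3 binding changed within the first hour of alternative polarization. The study calls its replicates biological, without stating whether they came from separate animals or cultures. Each group has 2 samples, so p-values measure at most the spread between such replicates. In limma, each region's p and SE also borrow that spread from other regions of like mean score. The labels give the HDAC3 antibody the same catalogue number as the H3K27Ac antibody, whereas the study's list of reagents gives HDAC3 an antibody of its own. The HDAC3 lists were therefore compared with those of the other antibodies, which does not tell which reagent was used.

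HDAC3 is a class I histone deacetylase. It has no DNA-binding domain, and it works within corepressor complexes, which transcription factors bring to enhancers and promoters. Removal of acetyl groups from histones is linked to lower transcription, while the acetyltransferase p300 works in the opposite direction. IL-4 acts through its receptor and JAK kinases on STAT6, which binds palindromic sites in DNA within minutes, and PU.1 marks most macrophage enhancers. RNAPII-pS5 is the form of RNA polymerase II found at initiation, and H3K27Ac is a mark of active regulatory elements.

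The sequences that carried the change are shown first. These are 300 bases (mm10, plus strand) around the midpoint of the highest peak for the 5 regions of smallest p among those higher after IL-4 and for the 3 of smallest p among those lower after IL-4. Capitals mark TTCNNNNGAA, the spacing of a STAT6 site, and AGGAAGT, a PU.1 site, on either strand.
Gm20139 region, chr10:19167855-19168154, higher: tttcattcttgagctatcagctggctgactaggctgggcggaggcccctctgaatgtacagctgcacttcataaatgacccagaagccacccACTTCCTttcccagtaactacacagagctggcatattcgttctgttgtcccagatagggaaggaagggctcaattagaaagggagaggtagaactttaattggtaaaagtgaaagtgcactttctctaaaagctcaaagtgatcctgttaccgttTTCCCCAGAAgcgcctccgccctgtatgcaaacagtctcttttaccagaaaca
Pak2 region, chr16:32059840-32060139, higher: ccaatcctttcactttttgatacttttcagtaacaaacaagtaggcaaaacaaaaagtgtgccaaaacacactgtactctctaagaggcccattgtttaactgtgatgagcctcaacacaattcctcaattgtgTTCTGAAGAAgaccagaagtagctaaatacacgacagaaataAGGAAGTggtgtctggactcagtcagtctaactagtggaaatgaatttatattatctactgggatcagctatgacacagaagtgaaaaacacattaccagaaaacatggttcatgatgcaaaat
Nabp1 region, chr1:51493763-51494062, higher: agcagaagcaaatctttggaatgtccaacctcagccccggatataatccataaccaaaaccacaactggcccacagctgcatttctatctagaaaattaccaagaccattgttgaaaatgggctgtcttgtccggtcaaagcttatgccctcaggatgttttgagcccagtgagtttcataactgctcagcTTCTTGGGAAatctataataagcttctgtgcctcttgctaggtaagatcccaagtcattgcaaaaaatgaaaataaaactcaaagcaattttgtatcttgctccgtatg
Als2cr12 region, chr1:58693796-58694095, higher: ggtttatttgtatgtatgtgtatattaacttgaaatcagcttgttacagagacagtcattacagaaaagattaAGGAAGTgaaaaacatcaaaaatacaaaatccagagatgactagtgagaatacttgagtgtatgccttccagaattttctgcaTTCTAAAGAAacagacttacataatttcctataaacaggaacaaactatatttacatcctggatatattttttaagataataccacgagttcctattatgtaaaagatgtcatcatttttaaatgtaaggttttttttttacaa
Prdm1 region, chr10:44539191-44539490, higher: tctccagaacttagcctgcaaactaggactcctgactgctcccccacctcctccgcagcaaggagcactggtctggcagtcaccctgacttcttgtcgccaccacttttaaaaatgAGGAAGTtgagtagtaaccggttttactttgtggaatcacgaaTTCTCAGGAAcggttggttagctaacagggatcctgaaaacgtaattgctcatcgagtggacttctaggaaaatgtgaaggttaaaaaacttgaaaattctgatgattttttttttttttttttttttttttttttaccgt
Chst15 region, chr7:132423638-132423937, lower: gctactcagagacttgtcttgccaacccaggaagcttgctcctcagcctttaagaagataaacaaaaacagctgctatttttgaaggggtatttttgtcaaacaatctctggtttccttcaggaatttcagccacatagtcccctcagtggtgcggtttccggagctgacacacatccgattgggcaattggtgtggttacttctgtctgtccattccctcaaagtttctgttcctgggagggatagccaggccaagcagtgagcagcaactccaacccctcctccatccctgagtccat
Snx6 region, chr12:54822909-54823208, lower: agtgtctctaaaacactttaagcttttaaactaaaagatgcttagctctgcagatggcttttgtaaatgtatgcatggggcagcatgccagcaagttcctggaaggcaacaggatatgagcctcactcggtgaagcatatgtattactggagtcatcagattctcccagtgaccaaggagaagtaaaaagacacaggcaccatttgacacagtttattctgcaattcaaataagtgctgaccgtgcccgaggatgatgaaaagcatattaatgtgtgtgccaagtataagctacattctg
Rnf112 region, chr11:61469396-61469695, lower: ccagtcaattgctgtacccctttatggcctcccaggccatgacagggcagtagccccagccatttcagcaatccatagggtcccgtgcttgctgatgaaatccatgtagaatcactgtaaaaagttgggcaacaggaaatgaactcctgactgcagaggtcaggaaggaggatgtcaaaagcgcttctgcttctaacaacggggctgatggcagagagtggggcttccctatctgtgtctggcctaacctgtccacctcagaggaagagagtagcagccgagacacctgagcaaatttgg
Each of the 5 sequences with a higher HDAC3 score held 1 STAT6-type match, and 4 of them also held a PU.1 match, the Nabp1 window being the exception. None of the 3 sequences with a lower HDAC3 score, which kept a peak with IL-4, held either motif. Over all tested regions the shares were 15.3% for the STAT6-type and 37.9% for the PU.1 motif, so few matches are expected in 3 windows. The Snx6 window held TTCCTGGAA, which has the STAT6-type ends with a gap of 3. Of the 10 regions of highest mean score, none of which was called, 2 held the STAT6-type and 6 the PU.1 motif. Each of these 3 windows held a C/EBP-type match (TTGCNNAA), which was found in 4 of the 13 lower regions in all (30.8%) and in 21.9% of tested regions.

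The lists held 11985 and 8440 HDAC3 peaks in the untreated samples and 13599 and 11971 in the IL-4 samples. Untreated replicate 2 thus had the shortest list, while sequencing depth itself is unknown. The score of a peak appears to be of the −log10 p type given by the peak caller, which is inferred from its values. Its median was 8.65 and 7.77 untreated and 8.88 and 8.50 with IL-4. Few peaks scored under 2 (6 and 4 untreated, 2 and 12 with IL-4), and the lowest score was 1.40. A score rises with depth as well as with enrichment, so a difference of scores is not a fold change of binding. In all 4 samples HDAC3 lay mostly away from promoters: 43.8% to 45.5% were intergenic and 45% to 45.8% intronic. Only 5.97% to 6.93% were annotated as promoter-TSS, and the median distance to the nearest TSS was 20171 to 21028 bp. The promoter share was 6.41% ± 0.621 (SD, n = 2) untreated and 6.63% ± 0.426 (SD, n = 2) with IL-4, a difference of 0.222 percentage points that was smaller than the spread (exact permutation test, two-sided, p = 0.6667, where 0.3333 is the smallest p that 2 against 2 samples allow). With the untreated replicate 2 left out, the difference was −0.217 points.

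Peaks that shared at least 1 bp across the 4 lists were merged into 18252 regions. Of these, 6052 (33.2%) had a peak in all 4 samples, 2865 in 3, 3650 in 2, and 5685 in a single sample. At the 6052 shared regions, scores were more alike within a group (Pearson r = 0.75 between the untreated and 0.80 between the IL-4 samples) than across groups (r from 0.67 to 0.71). These are correlations across regions, which share libraries and are not independent replicates. The label names macrophages, and 8 of 10 macrophage marker genes had at least 1 HDAC3 region, and 6 had one in all 4 samples, the exceptions with no region being Adgre1 and Spi1. Of 7 T cell, 6 B cell, 7 neutrophil and granule, 6 erythroid, and 6 fibroblast markers, 2, 1, 1, 0, and 1 had a region.

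The HDAC3 regions were shared with the other cofactors. Of the 12567 regions with a peak in at least 2 samples, 95.6% had a p300 peak and 86.4% a PU.1 peak in both untreated samples of those antibodies. The shares were 72.9% for HDAC1, 71.4% for HDAC2, 70.3% for RNAPII-pS5, and 60.5% for H3K27Ac. The level of HDAC3 across regions was most like that of p300 (Spearman rho from 0.40 to 0.53 over the 4 pairs of samples), HDAC2 (0.34 to 0.43), HDAC1 (0.31 to 0.36), and PU.1 (0.27 to 0.36). It was little like that of H3K27Ac (0.01 to 0.08) or RNAPII-pS5 (0.07 to 0.10), in 5447 to 13459 regions per pair. These correlations are descriptions, and the lists differ in depth and, for H3K27Ac, in the peak caller.

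The change after IL-4 was tested in the 12567 regions with limma on log2 scores, with a missing peak set to the lowest score of the 4 lists (1.40) and each sample centred on its shared regions. Centring lowered every log2 change by the same amount. A log2 change therefore lies below what the uncentred scores quoted beside it give. HDAC3 was higher after IL-4 in 153 regions (1.22% of those tested) and lower in 13 (0.103%) at an adjusted p of at most 0.05. The regions that rose were annotated to 141 genes, and 67 of them had a peak in all 4 samples, while 52 had one only in the IL-4 samples. Those 52 entered the test through the IL-4 samples alone, with both untreated values set at the floor. Their p-values and SEs therefore measure no spread between the untreated samples. The median log2 change of score was 2.68 in the higher regions (range 0.93 to 5.45) and −1.57 in the lower regions (−3.82 to −0.997), against 0.085 over all tested regions. Both IL-4 samples lay above both untreated samples in 28.8% of the tested regions and below them in 17.7%. The number of calls changed with the settings. Restricted to the 6052 regions with a peak in every sample, 109 were higher and 36 lower, and these held all 67 and all 11 of the original calls that could be tested there. With lists cut to equal length, without centring, or without a mean-variance trend, limma called 0 regions in either direction (smallest adjusted p 0.111, 0.0945, and 0.0924), although 1220, 2147, and 1864 regions were higher and 850, 385, and 563 lower at an unadjusted p under 0.05. With the replicate number as a block it called 2 higher and 0 lower regions. The number of calls also changed widely when 1 sample was left out. Such a fit has 1 sample in a group, takes its spread from the other group alone, and tests another set of regions. Its counts are therefore not given.

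**Figure D1:**
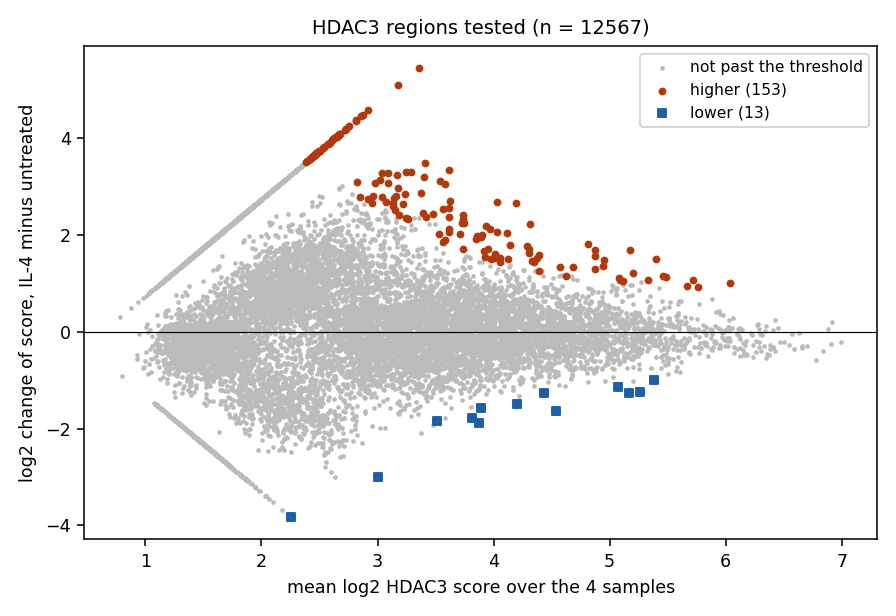
Change of HDAC3 score (log2, IL-4 minus untreated) against the mean log2 score over the 4 samples, 1 point per tested region. Regions past the threshold are red (153 higher) or blue squares (13 lower), and the straight diagonal edges are regions with no peak in 1 of the groups, whose value depends on the floor.

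Among the 10 regions of smallest p that rose, 4 had no untreated peak at all. The region with the smallest p lay in the only intron of Gm20139, 767 bp from its TSS (chr10:19167794-19168225). It had no peak in either untreated sample and scored 77.64 and 71.65 with IL-4 (log2 change 5.45 ± 0.52 (SE), adjusted p = 3.71e-07). In intron 1 of Pak2, which encodes a p21-activated kinase, the score was 57.19 and 59.81 with IL-4, again with no untreated peak (5.10 ± 0.58, adjusted p = 8.24e-06). The same pattern held 80654 bp upstream of Prdm1, the gene of the transcriptional repressor BLIMP1, with scores of 36.63 and 45.72 (4.58 ± 0.68, adjusted p = 0.00065), and in intron 1 of Tex2, with 40.81 and 35.89 (4.49 ± 0.70, adjusted p = 0.000778). For these 4 regions the size of the change is set by the floor and is not an estimate of a fold. Their SE and p also rest on the floor, as at every region named below with no untreated peak.

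The others of the 10 already carried HDAC3 in at least 1 untreated sample. A region 15514 bp upstream of Nabp1, which encodes a single-stranded DNA-binding protein, went from 9.63 and 4.46 untreated to 53.08 and 48.51 with IL-4 (2.67 ± 0.35, adjusted p = 0.000127). A neighbouring region 36254 bp upstream of Nabp1 scored 5.92 in untreated replicate 1, had no peak in replicate 2, and rose to 47.44 and 32.57 (3.48 ± 0.54, adjusted p = 0.000778). Nabp1 was 1 of 3 genes with 3 called regions, next to Klf7, which encodes a Krüppel-like factor, and Lpp, out of 9 genes with 2 or more. The region in intron 1 of Als2cr12 scored 5.15 and 6.60 untreated against 56.42 and 36.72 with IL-4 (2.68 ± 0.39, adjusted p = 0.000584). In the 3′ UTR of Mon1b, nearest to the TSS of Syce1l (533 bp), scores were 11.89 and 5.83 untreated and 53.05 and 42.93 with IL-4 (2.23 ± 0.34, adjusted p = 0.00065). Upstream of the homeobox gene Hlx, at 2716 bp, HDAC3 was already strong and went from 23.88 and 13.85 to 78.65 and 65.02 (1.69 ± 0.26, adjusted p = 0.000778). In intron 9 of Ranbp2, a component of the nuclear pore, only untreated replicate 1 had a peak (8.59), against 41.11 and 45.24 with IL-4 (3.35 ± 0.53, adjusted p = 0.000778). Regions were named only where the groups did not overlap, and among these 10 the lowest IL-4 score was 32.57 against a highest untreated score of 23.88.

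The 10 regions of smallest p that fell all passed the threshold, with adjusted p between 0.00502 and 0.0418, and 8 of them kept a peak in all 4 samples. The strongest fall by p lay 106633 bp upstream of Chst15, a sulfotransferase gene, from 40.73 and 33.42 untreated to 18.05 and 11.75 with IL-4 (−1.63 ± 0.31, adjusted p = 0.00502). The region 27397 bp upstream of Snx6, a sorting nexin gene, went from 55.62 and 51.10 to 27.61 and 27.34 (−1.24 ± 0.26, adjusted p = 0.0112), and that near Rnf112 from 30.46 and 21.38 to 6.85 and 10.44 (−1.88 ± 0.41, adjusted p = 0.0135). In intron 1 of Smad3, which encodes a transducer of TGF-β signalling, the scores were 55.56 and 45.69 untreated and 36.78 and 17.68 with IL-4 (−1.27 ± 0.29, adjusted p = 0.0183). Other falls were annotated to Gtf3c5, A630007B06Rik, Tmc6, Casp8, and 2610307P16Rik, the last with no peak in either IL-4 sample.

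**Figure D2:**
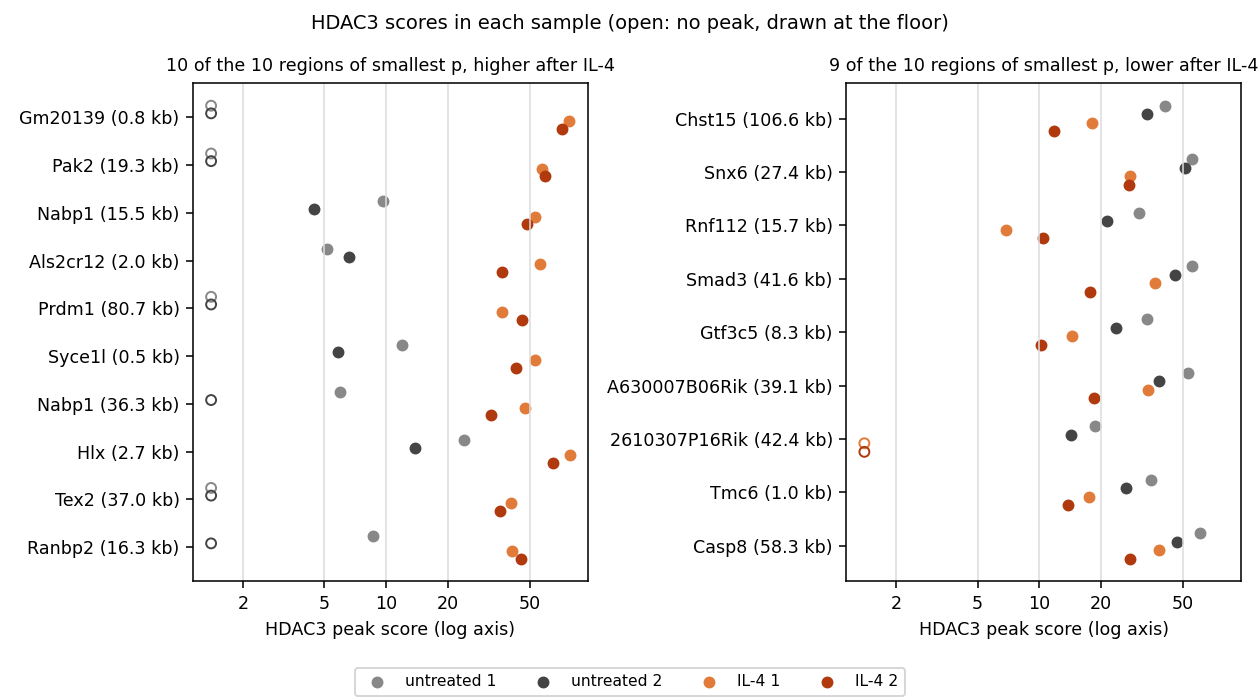
HDAC3 peak score (log axis) in each of the 4 samples for the 10 regions of smallest p that rose and 9 of the 10 that fell, named by the nearest gene and the distance to its TSS. Filled points are scores, and open points are samples with no peak, drawn at the floor of 1.40. Untreated samples are grey and IL-4 samples orange, and they lie apart in every row because regions were named only where the groups did not overlap.

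Of the 105 tested regions annotated to 28 genes of the alternative polarization programme, 6 (5.71%) were higher and 0 lower, against 1.22% and 0.103% of all tested regions. The list was chosen with earlier results known, and its share was not tested. Its median log2 change was 0.44 against 0.085 over all tested regions. The 6 regions belonged to 5 genes. The region at Arg1 (arginase 1, the classical marker of this state), 2848 bp upstream, scored 12.49 and 14.45 untreated and 58.10 and 30.19 with IL-4 (1.35 ± 0.33, adjusted p = 0.0355). At the promoter of Tfec, a transcription factor of the MiT family, scores went from 7.55 and 7.77 to 29.78 and 29.47 (1.66 ± 0.40, adjusted p = 0.0281). In intron 2 of Cdh1 (E-cadherin) they went from 5.40 and 8.57 to 32.80 and 32.28 (1.97 ± 0.42, adjusted p = 0.0125). A region near Batf3, an AP-1 family gene, had no untreated peak and scored 30.12 and 28.49 (4.10 ± 0.79, adjusted p = 0.00502). The remaining 2 lay 22278 and 32949 bp upstream of Flt1, a VEGF receptor gene, with log2 changes of 1.61 ± 0.38 and 2.41 ± 0.60 (adjusted p = 0.0256 and 0.038). In this list 19 of the 105 regions had a peak only in the IL-4 samples and 0 only in the untreated samples. Over all 12567 tested regions the counts were 1628 and 345. At an unadjusted p under 0.05, 28 regions of the list were higher and 1 lower, against 1585 and 758 of all tested regions.

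In the inflammatory list, 3 of 98 tested regions (3.06%, against 1.22% of all) were higher and 0 lower. At an unadjusted p under 0.05 the counts were 14 and 8, against 1585 and 758 of all 12567 tested regions. Its median change was 0.085, the same as over all tested regions. A region 24356 bp downstream of the TSS of Tlr4, the LPS receptor gene, had no untreated peak and scored 29.30 and 42.27 with IL-4 (4.36 ± 0.74, adjusted p = 0.00152). The other 2 belonged to Tnfaip3, which encodes the NF-κB inhibitor A20. At its promoter, 124 bp from the TSS, scores rose from 7.34 and 7.04 to 36.41 and 37.57 (2.08 ± 0.38, adjusted p = 0.00292), and a region 48264 bp upstream went from no peak to 25.26 and 20.05 (3.72 ± 0.87, adjusted p = 0.0256). Promoters made up 6 of the 153 regions that rose (3.92%), against 6.14% of tested regions. Besides Tnfaip3 and Tfec, these included Tnip3, whose product binds A20, which was picked out after its values were seen (no untreated peak, then 30.04 and 24.21, 3.98 ± 0.82, adjusted p = 0.00832).

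The other lists held 0 to 2 called regions each, against 1.22% of all tested regions called higher and 0.103% lower. Among 52 tested regions of JAK-STAT and feedback genes, 1 (1.92%) was higher, near Socs6 (no untreated peak, then 27.17 and 21.52, 3.82 ± 0.85, adjusted p = 0.0166). Of 60 regions of lysosomal genes 2 (3.33%) were higher, upstream of the cathepsin genes Ctss (16.20 and 7.39 to 46.68 and 34.39, adjusted p = 0.01) and Ctsc (15.32 and 18.75 to 51.62 and 50.09, adjusted p = 0.0245). Of 13 regions of Fos, Lyz1, Lyz2, and Smad3, 1 was lower, at Smad3. The study chose these 4 genes because their repression by IL-4 depended on STAT6 and HDAC3, and because HDAC3 and corepressors were bound at their enhancers. This count is therefore not independent evidence of a direction.

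No region passed the threshold in the lists of macrophage lineage factors (91 tested), AP-1 factors (30, without Batf3, which was counted in the alternative polarization list), or nuclear receptors and sterol targets (46), where limma gave an adjusted p of at least 0.0821. At an unadjusted p under 0.05, 8 and 2, 5 and 1, and 2 and 5 of these regions were higher and lower. The counts over all 12567 tested regions were 1585 and 758. The 2 regions of smallest p in the lineage list were near Irf8 (5.11 in untreated replicate 2 only, against 20.50 and 20.33 with IL-4, adjusted p = 0.0821) and Csf1r (6.90 in untreated replicate 1 only, against 17.11 and 18.34, adjusted p = 0.141). In the AP-1 list they were near Atf3 (14.47 and 8.72 against 26.79 and 33.47, adjusted p = 0.122) and Batf (no untreated peak, 16.86 and 9.16, adjusted p = 0.17). In the nuclear receptor list they were near the sterol transporter gene Abca1 (36.72 and 27 against 25.60 and 16.77, adjusted p = 0.15) and in intron 1 of Rxra (12.47 and 11.33 against 5.53 and no peak, adjusted p = 0.188). The median changes of these lists were −0.040, 0.16, and 0.11. The groups of the named regions did not overlap, but these regions were picked by p. Over all tested regions, both IL-4 samples lay above both untreated samples in 28.8% and below them in 17.7%.

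Presence and absence of peaks gave more regions than the scores, without a test. A peak in both IL-4 samples and in neither untreated sample was found in 1628 regions (8.92% of all regions), and the opposite in 345 (1.89%). Leaving out a sample changed the rule itself, since a group of 1 then asked for 1 peak in place of 2. Part of each shift below therefore comes from the rule. Without untreated replicate 2, the shortest list, 1960 regions were gained and 1999 lost. Without untreated replicate 1 there were 3353 and 883, without IL-4 replicate 1 there were 2940 and 885, and without IL-4 replicate 2 there were 3852 and 627. With all lists cut to equal length, 886 were gained and 623 lost. Gained regions were as distal as the rest, with a median of 22760 bp to the nearest TSS against 20755 bp over tested regions, and 5.47% were at promoters against 6.14%. Among lost regions 9.28% were at promoters.

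The sequences of the regions were searched for 12 motifs, and the STAT6-type spacing was the most frequent in the higher and in the gained regions. TTCNNNNGAA was found in the 300-bp window of 98 of 153 higher regions (64.1%) and 653 of 1627 gained regions (40.1%), against 15.3% of all 12562 tested regions on assembled chromosomes. It was found in 1 of 13 lower regions (7.69%) and in 9 of 345 lost regions (2.61%). Among the calls restricted to regions with a peak in every sample, a set chosen after seeing the data, 61 of 109 higher (56.0%) and 3 of 36 lower regions (8.33%) held it. The 3-base spacing used by other STATs, TTCNNNGAA, which has the same ends, was present in 34.0% of higher and 21.3% of gained regions against 14.6% of tested regions. The PU.1 motif AGGAAGT was present in 37.3% of higher, 34.3% of gained, and 32.2% of lost regions against 37.9% of all. The AP-1 motif TGANTCA was present in 16.3% of higher and 30.1% of lost regions, against 22.7% of tested regions. A match is a description of letters on either strand and not evidence of binding by a factor, and STAT6 itself was not analysed here.

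**Figure D3:**
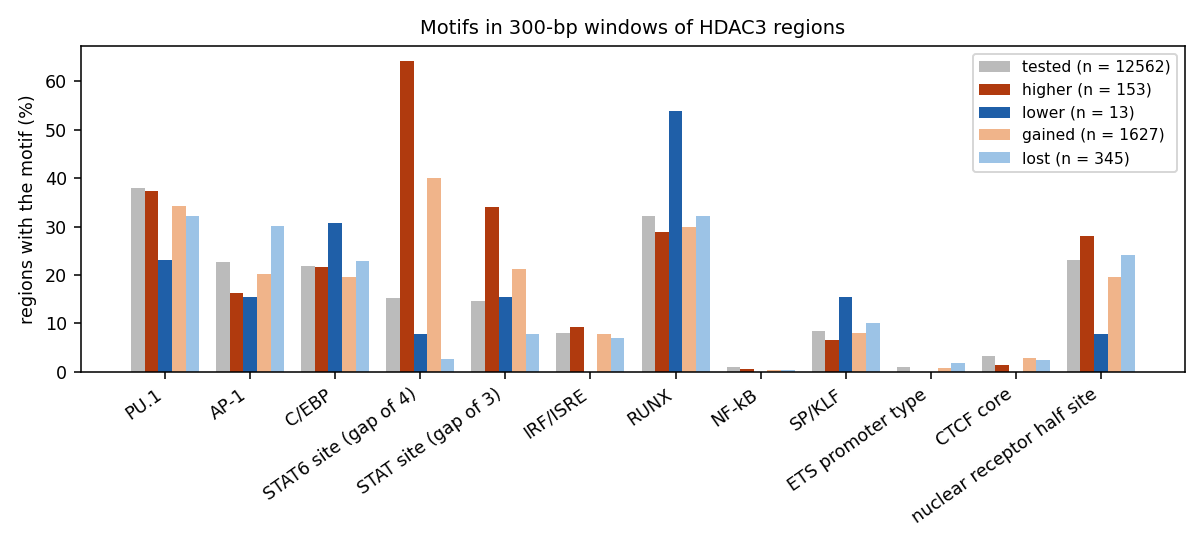
Share of HDAC3 regions (%) whose 300-bp window holds each of 12 motifs on either strand, for all tested regions (grey), regions higher or lower after IL-4 by limma (dark red, dark blue), and regions with a peak only in the IL-4 samples or only in the untreated samples (light red, light blue). The STAT6-type motif reaches 64.1% in the higher regions against 15.3% of tested regions.

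The other antibodies, measured in libraries of their own, moved with HDAC3 at the regions that rose. Each value here is the median over regions of the centred log2 score, or signal for H3K27Ac, in a sample. Regions needed a peak of that antibody in at least 2 of its 4 samples, and missing peaks were set to its lowest value. Of the 153 higher regions, some had a peak of the antibody in both IL-4 samples and in neither untreated sample. These were 47 for RNAPII-pS5, 38 for HDAC2, 30 for HDAC1, 17 for H3K27Ac, 13 for PU.1, and 5 for p300. At these the order of the groups follows from the floor. At the higher regions p300 went from −0.83 and −0.68 untreated to 1.16 and 1.08 with IL-4, and both IL-4 samples lay above both untreated samples in 146 of 153 regions, against 30.1% of HDAC3 regions in general. PU.1 went from −0.93 and −1.05 to 0.49 and 0.55, with 129 of 153 regions above against a background of 21.1%. RNAPII-pS5 went from −1.63 and −1.56 to 0.22 and 0.14, with 112 of 135 regions above against 26.6%. H3K27Ac went from −1.95 and −1.94 to −0.07 and −0.04, with 89 of 98 regions above against 36.3%. The other deacetylases rose as well: HDAC1 went from −0.97 and −0.95 to 0.16 and 0.12 (96 of 138 regions above against 18.2%) and HDAC2 from −0.86 and −0.90 to 0.30 and 0.24 (110 of 146 against 21.4%). Each of these 6 differences was larger than the spread between replicates, with p = 0.3333 in the exact permutation test (two-sided, 2 against 2), the smallest it allows. Over all tested regions the 6 differences ranged from −0.021 to 0.037, which the centring holds near 0.

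At the regions that fell, the values were less uniform and rest on 7 to 13 regions. For p300 they were 0.68 and 0.42 untreated and −0.18 and −0.19 with IL-4, and 10 of 13 regions lay below against a background of 41.2%. HDAC2 went from 0.06 and 0.07 to −0.30 and −1.09 (6 of 13 regions below against 19.3%), and RNAPII-pS5 from −0.37 and −0.17 to −0.97 and −0.62 (5 of 13 against 26.2%). H3K27Ac went from −2.27 and −2.15 to −2.98 and −2.50, and 6 of 7 regions lay below against 47.9%. For HDAC1 (0.16 and −0.18 against −0.61 and −0.09, 5 of 13 regions below against 23.0%) and PU.1 (−1.07 and −0.81 against −0.99 and −1.01, 5 of 11 against 23.4%), the groups overlapped. Without centring, the p300 difference was 0.044 in place of −0.74, so its direction at these regions rests on the scaling. With a peak of the antibody in every sample, the RNAPII-pS5 difference was 0.39 in place of −0.53 (7 regions) and that of HDAC2 −0.078 in place of −0.76 (8 regions), so these values also changed with the setting.

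**Figure D4:**
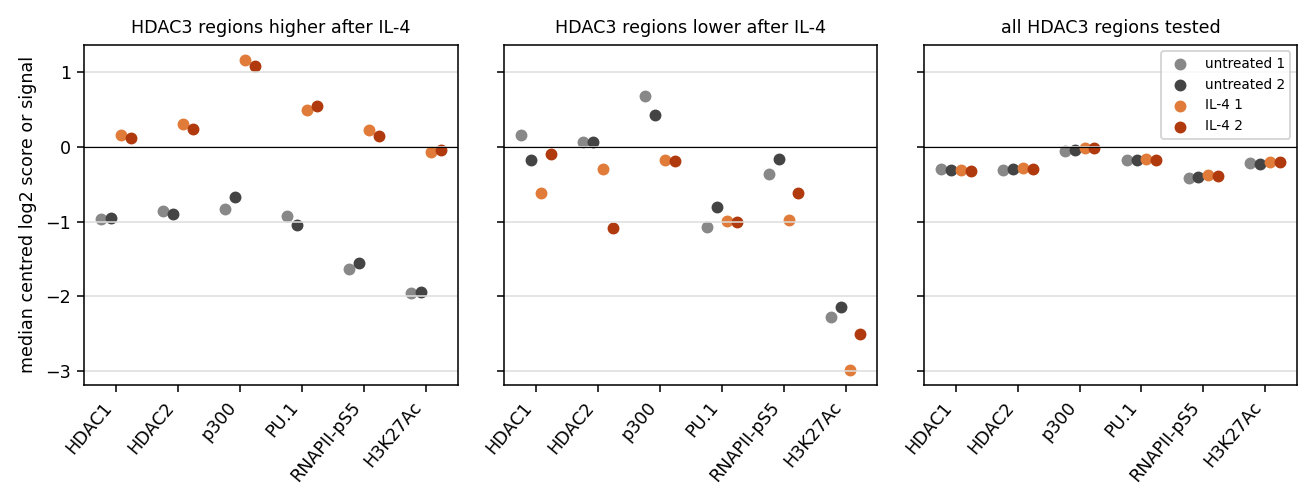
Median centred log2 score (signal for H3K27Ac) of 6 other antibodies at the 153 HDAC3 regions higher after IL-4, the 13 lower, and all 12567 tested, 1 point per sample (untreated grey, IL-4 orange). At the higher regions the IL-4 points of all 6 antibodies lie above the untreated points.

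Single regions varied around these medians. At the Gm20139 region p300 scored 6.60 and 13.00 untreated and 231.93 and 222.04 with IL-4, and PU.1 had no peak and 8.08 untreated against 121.02 and 105.61. RNAPII-pS5 had a peak there only with IL-4, at 25.99 and 17.42. At the Pak2 region PU.1 was already bound, at 69.15 and 53.07, and reached 190.03 and 194.41, while H3K27Ac signal went from 45.4 and 38.4 to 100.0 and 110.0. At Arg1 the H3K27Ac signal went from 101.3 and 122.5 to 405.6 and 401.3. At the Tlr4 region H3K27Ac was called only with IL-4, at 255.0 and 252.4, and p300 went from 18.02 and 56.19 to 238.70 and 242.94. The Snx6 region, where the HDAC3 score fell, went the other way for p300, from 39.97 and 106.85 to 221.55 and 213.99. At Smad3 p300 was 56.24 and 190.65 untreated and 85.58 and 86.83 with IL-4, HDAC2 16.88 and 9.79 against 3.98 and 4.18, and HDAC1 11.72 and 8.96 against 2.70 and 5.78. Untreated p300 replicate 1 scored below replicate 2 at each of these regions, and the raw scores of that antibody are not centred.

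Many of the regions where HDAC3 appeared were occupied before IL-4. Of the 1628 gained regions, 81.4% had a p300 peak and 68.7% a PU.1 peak in both untreated samples, against 95.6% and 86.4% of all tested regions. Fewer had HDAC1 (39.9%), HDAC2 (38.3%), RNAPII-pS5 (37.8%), or H3K27Ac (45.3%) in both untreated samples. In both IL-4 samples the shares were 99.5% for p300, 90.8% for PU.1, 66.2% for HDAC2, 59.8% for RNAPII-pS5, 56.2% for H3K27Ac, and 51.8% for HDAC1, against 99.3%, 90.6%, 74.4%, 67.6%, 60.9%, and 63.5% of all tested regions. At the 345 lost regions the shares of HDAC1 and RNAPII-pS5 went the other way, from 59.7% to 35.1% and from 63.5% to 42.9%. Those of HDAC2 (51.9% to 38.3%), H3K27Ac (55.9% to 49.6%), and PU.1 (78.3% to 74.5%) also went down, while that of p300 went from 95.7% to 97.7%. These shares were not tested, and over all tested regions those of HDAC1 and RNAPII-pS5 also went down, from 72.9% to 63.5% and from 70.3% to 67.6%.

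**Figure D5:**
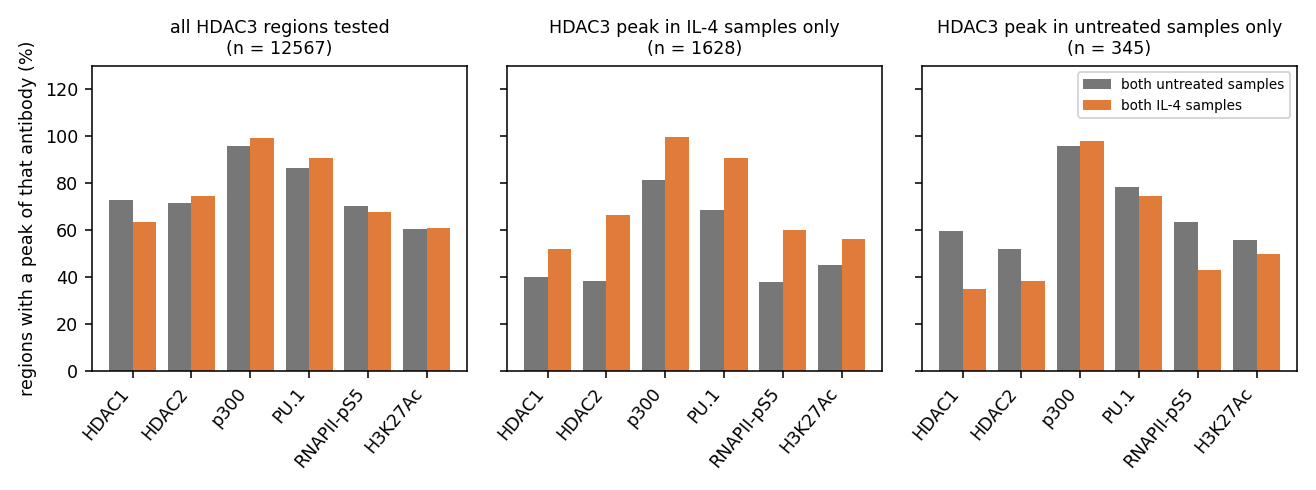
Share of HDAC3 regions (%) with a peak of each of 6 other antibodies in both untreated samples (grey) and in both IL-4 samples (orange), for all 12567 tested regions, the 1628 with an HDAC3 peak only in the IL-4 samples, and the 345 only in the untreated samples. p300 and PU.1 had a peak at most gained regions before IL-4, but at smaller shares than over all tested regions.

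Whether HDAC3 changed differently from HDAC1 and HDAC2 was tested as an interaction in limma over 8 samples. Of 10736 HDAC3 regions that also had HDAC1 peaks, 0 (0.0%) passed an adjusted p of 0.05 (smallest 0.594), with 840 at an unadjusted p under 0.05. Of 11165 regions shared with HDAC2, 0 (0.0%) passed (smallest 0.649), with 812 at an unadjusted p under 0.05. This does not show that the 3 deacetylases changed alike. At the Prdm1 region the HDAC3 change exceeded that of HDAC1 by 4.26 ± 0.85 (SE) and that of HDAC2 by 3.18 ± 0.73 on the log2 scale (adjusted p = 0.594 and 0.649). The size of this excess is set by the floor, since HDAC3 had no untreated peak there. HDAC1 scored 8.78 and 4.52 untreated and 7.68 and 5.26 with IL-4. At the Nabp1 region 15514 bp upstream the excess was 2.62 ± 0.54 over HDAC1 and 2.33 ± 0.45 over HDAC2 (adjusted p = 0.594 and 0.649). HDAC1 scored 17.36 and 8.98 there untreated and 9.70 and 11.19 with IL-4. At the Tfec promoter the excess was 0.52 ± 0.66 and 0.30 ± 0.57, and at Smad3 −0.20 ± 0.63 and 0.47 ± 0.56, all within the error. Among regions with a peak in all 8 samples, 1 of 4364 passed against HDAC1, the same Nabp1 region (adjusted p = 0.0383).

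The 10 regions of highest mean score had adjusted p between 0.198 and 0.976 and log2 changes between −0.57 and 0.21, so none was called, against 1.22% and 0.103% of all tested regions called higher and lower. The strongest was near Rps14, with scores of 142.15 and 107.35 untreated and 139.52 and 123.63 with IL-4. It was followed by a region in intron 1 of Ece1, which encodes an endothelin-converting enzyme (123.44 and 83.38 against 138.87 and 148.39), and one 64772 bp upstream of Il6, the inflammatory cytokine gene (125.94 and 111.83 against 136.39 and 107.97). After centring, the log2 changes near Rps14 and Il6 were −0.20 and −0.26, although their uncentred scores did not fall on average. The intron of Cx3cr1, the fractalkine receptor gene, had the smallest p of the 10 (126.25 and 115.74 against 94.70 and 103.98, −0.57 ± 0.22, adjusted p = 0.198). The others lay near Vprbp, 9130015A21Rik, Hivep2, 9430076C15Rik, 5730435O14Rik, and 2510009E07Rik.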

How the data were processed

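ChIP-seq of HDAC3 in BMDMs was used as deposited, 1 list of annotated peaks per sample. Per the labels and the study's methods, the authors aligned reads with BWA to mm10, called peaks per sample with MACS2 (q-value cut-off of 0.01), took out blacklisted regions, and added HOMER annotations. The submitters' processing notes name BWA 0.7.10, SAMtools 0.1.19, HOMER 4.2, and MACS2 2.0.10. No input control is stated. The deposited score is a −log10 p- or q-value, inferred from its values, and for H3K27Ac the deposited value is the HOMER signal of normalized tags. Depth is unknown, so no counting interval is given. The authors' read-based comparison with DiffBind was not repeated, since no reads were analysed here.

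Peaks were merged where they shared 1 bp, and the highest score per sample was kept. Missing values were set to the lowest score, put on a log2 scale, and centred on the median of regions with a peak in all 4 samples. Regions with a peak in at least 2 samples were tested with limma 3.58.1 (R 4.3.3, eBayes with trend, Benjamini-Hochberg adjustment). The study's methods state no block, and samples shared only a replicate number. Named regions were the 10 of smallest p in each direction whose groups did not overlap, the 10 of highest mean score, and for each gene list every region past the threshold or else the 2 of smallest p. The region of 1 named gene, and the count of the corepressor, deacetylase, and acetyltransferase list that holds it, are not reported here. Genes are the nearest TSS in the files, and hosts of introns come from RefSeq (GRCm38.p6), as do the sequences. The 8 sequences were taken in order of p. Motifs were searched on both strands in 300-bp windows. The members, the 9 gene lists, and the 6 marker lists were chosen with earlier results of these data known. Alternatives were other scalings, floors, filters, list lengths, and peak widths, a replicate block, and leaving out each sample. The RNAPII-pS2 lists of the same experiment were not used, because their peak names carry the opposite treatment. Scripts ran in Python 3.11.15 with SciPy 1.17.1, pandas 2.3.3, and NumPy 2.4.6.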

Additional observations from a re-analysis of the deposited data

How the results depend on the processing

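The counts of called regions were the least stable values. Quantile normalization gave 231 higher and 49 lower regions, a floor 4 times as high 33 lower (167 higher), a peak in every sample 36 lower (109 higher), no filter 289 and 36, and a score of at least 5 gave 38 lower (218 higher). Trimming peaks to 200 bp gave 8 lower (124 higher). No centring, eBayes without trend, and equal list lengths each gave 0 and 0. Leaving out 1 sample gave 13 to 805 higher and 7 to 58 lower. Samples with the same replicate number did not deviate together (r = 0.06 across shared regions), and the number is not stated to pair them. With the replicate block limma called 2 higher and 0 lower regions (2156 and 700 at an unadjusted p under 0.05), on 1 residual degree of freedom. Equal list lengths gave 886 gained and 623 lost regions, and leaving out 1 sample 1960 to 3852 and 627 to 1999. The promoter difference was −0.48 points with equal lists and −0.22 to 0.66 with 1 sample left out. Against HDAC1, a peak in every sample gave 1 region, and against HDAC2 every alternative gave 0, the replicate block included (0 for both).

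The other antibodies at the higher regions kept their direction in every alternative run. With a peak of that antibody in every sample, the log2 differences were 0.71 (HDAC1), 0.77 (HDAC2), 1.10 (PU.1), 1.06 (RNAPII-pS5), and 1.48 (H3K27Ac). Without centring they were 0.80, 1.24, 1.96, 1.59, and 1.82, and 2.66 for p300. At the 109 regions called with a peak in every HDAC3 sample, chosen after seeing the data, they were 0.70, 0.69, 0.73, 1.09, 1.29, and 0.91 for p300. At the lower regions, a peak in every sample gave 0.074 (HDAC1), −0.078 (HDAC2), 0.42 (PU.1), 0.39 (RNAPII-pS5), and −1.003 (H3K27Ac). Without centring PU.1 gave 0.40 and p300 0.044, the added region set gave −0.24 for PU.1, and leaving out 1 PU.1 sample −0.19 to 0.077. The cause of these shifts was not tested. Peak lists give no depth, so weak regions cannot be separated from shallow libraries.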

Other observations

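HDAC3 regions rarely lay in repeats or CpG islands as the files annotate them. Of the tested regions, 6.64% were in LTR elements, 4.85% in LINE elements, 2.37% in SINE elements, and 0.493% in CpG islands. Among the gained regions the shares were 7.43%, 4.67%, 2.27%, and 0.491%. None of the 153 higher regions lay in a CpG island. The median GC content of the 300-bp windows was 46.7% over the tested regions, 43.7% in the higher, 44.7% in the gained, 48.3% in the lost, and 51.0% in the 13 lower regions.

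The other motifs searched varied less between groups than the STAT6-type motif. The C/EBP motif TTGCNNAA was present in 21.6% of higher and 22.9% of lost regions against 21.9% of tested regions, and the RUNX motif TGTGGT in 28.8% and 32.2% against 32.1%. The nuclear receptor motif AGGTCA was present in 28.1% of higher regions against 23.1%, and the IRF motif GAAANNGAAA in 9.15% against 8.04%. Of the 13 lower regions, 7 (53.8%) held the RUNX motif and 1 (7.69%) the nuclear receptor motif. The NF-κB motif GGGANTTTCC was in 1 of 153 higher regions, 7 of 1627 gained regions, and 1.00% of tested regions. GGGCGG (SP/KLF) was in 6.54% of higher and 8.35% of tested regions and AGGGGGC (CTCF) in 1.31% and 3.15%. CCGGAAGT, an ETS motif that shares its last 6 letters with the PU.1 motif, was in 0 of 153 higher and 1.05% of tested regions. These shares are descriptions and were not tested.

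Klf7 had 3 called regions of 7 tested, 13188 to 174122 bp upstream of its TSS, with log2 changes from 1.49 to 4.05. Lpp had 3 of 16, from 1.02 to 3.96, and Nabp1 3 of 7, from 2.67 to 3.48. The others with 2 called regions were 1700112H15Rik, Flt1, P2ry1, Syce1l, Tnfaip3, and Zfp609. No gene had 2 or more regions that fell.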
